A study of Mus musculus with 13 samples.

Results

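Among 13 RNA-seq libraries of mouse right ventricle, the 3 libraries labelled Dsg2 F536C knock-in 4, 5 and 6 differed widely from the 4 libraries of the same genotype labelled knock-in 1, 2, 3 and 7. The knock-in carries the F536C substitution in Dsg2, the gene for desmoglein 2, which joins cardiomyocytes at their desmosomes. The study addresses arrhythmogenic cardiomyopathy and the part that PPAR-gamma has in it. All 7 knock-in libraries have the same genotype label, and 6 wild-type libraries are given here as reference levels only. The labels state no strain, sex, age, zygosity, treatment, litter or batch, and leave unsaid whether the libraries are separate mice. Polyadenylated RNA was sequenced from whole ventricle, so fewer cells of a type and less RNA per cell cannot be told apart.

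The 3 libraries were chosen by values measured in these same files, and no test was made between the 2 knock-in groups. They were set apart by the share of estimated read numbers that are not whole, which was 10.2% to 10.7% in these 3 libraries and 3.07% to 3.79% in the other 10. Their levels of the epithelial genes Krt8, Krt19, Epcam and Elf3 were also known when the comparison was proposed. All differences are therefore descriptions, and the ± values give the spread of 3 or 4 libraries. Genes with an exon that overlaps an exon on the opposite strand were left out of the counts, because reads of such partners may be assigned differently in the 3 libraries. Of such genes with over 10 reads, 30.1% to 31.3% had a value that was not whole in the 3 libraries and 3.29% to 3.68% in the other 10. A smaller difference remained among the genes compared, at 8.82% to 9.37% and 5.14% to 5.96%. Of these, 221 genes had a value over 10 reads that was not whole in all 3 and in none of the other 10. Of the 221 genes, 95 are among the higher genes below, beside 14.6% of all genes compared. Values of 10 reads or fewer were not counted, so genes scarce in the other 10 meet this rule more easily. Nothing is read from that share.

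Epithelia line ducts, skin and hollow organs. Their cells are held together by tight junctions and desmosomes and are filled with keratin filaments, with Krt8, Krt18 and Krt19 typical of single-layered epithelia and Krt5, Krt14, Krt15 and Krt17 of basal layers. Working ventricular muscle contains cardiomyocytes, endothelium, fibroblasts, pericytes and macrophages. Its only keratin-rich layer is the thin mesothelium of the epicardium.

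Of 10968 genes that were free of such overlap and sufficiently counted, 1601 were at least 2-fold higher in mean CPM, the reads of a gene scaled to library size, in knock-in 4, 5 and 6, with all 3 libraries above all other 4 knock-in libraries. They make up 14.6% of the genes compared. Another 159 genes, 1.45%, were at least 2-fold lower without overlap. Of the higher genes, 1483 were also above all 6 wild-type libraries (13.5% of the genes compared). Of the lower genes, only 51 were also below all wild-type libraries (0.465%), and the other 108 had at least 1 wild-type library at or under the highest of the 3. The higher genes were also further apart: 365 differed by at least 16-fold and 415 by 4-fold to 16-fold, whereas 7 of the lower genes differed by at least 4-fold. The median log2 difference over all 10968 genes was -0.01. Those 1601 genes held 15.1% to 18.2% of the CPM of the genes compared in the 3 libraries, 5.17% to 5.87% in the other knock-in and 4.20% to 4.78% in wild type.

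The higher genes spanned all levels of expression. By their mean in the other 10 libraries, 598 were under 1 CPM, 443 at 1 to 10 CPM, 494 at 10 to 100 CPM and 66 above that. The genes compared in these classes numbered 1320, 2730, 5556 and 1362. A gene was kept when it was counted well enough in either knock-in group. The scarce classes therefore hold genes that were kept because the 3 libraries were high, and nothing is read from the shares by class. The median log2 difference of the most abundant class was -0.23. The tables listed 18669 to 18707 genes with a read in the 3 libraries, 17083 to 17737 in the other knock-in and 16753 to 17598 in wild type. Totals were 23098305 to 29848597 reads in the 3 libraries and 14498336 to 25183188 in the other knock-in, and the part of depth in the gene numbers was not tested. By gene class, 74 of 122 processed pseudogenes were higher (60.7%), and 1495 of 10456 protein-coding genes (14.3%). The same filter acts on both classes, so scarce pseudogenes may have been kept because the 3 libraries were high. The classes were not matched for level, and nothing is read from their shares. Processed pseudogenes are copies of spliced transcripts, and reads can be shared with the parent gene, so single values of these are uncertain.

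**Figure D1:**
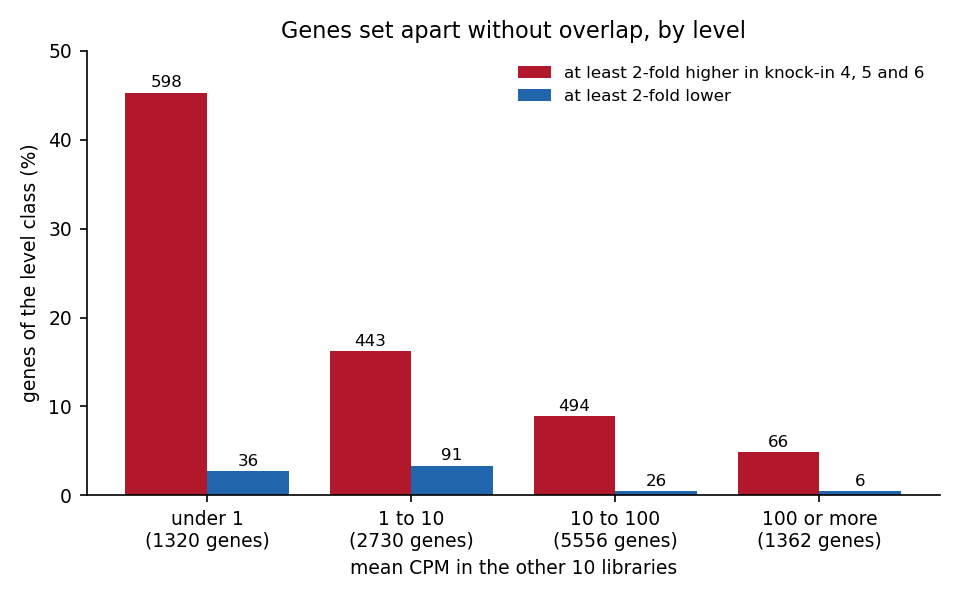
Share of genes (vertical axis, %) at least 2-fold higher (red) or lower (blue) in knock-in 4, 5 and 6 without overlap with the other 4 knock-in libraries, by mean CPM in the other 10 libraries; numbers over the bars are genes. The bars give 598, 443, 494 and 66 higher genes from the scarcest class to the most abundant; the shares of the scarce classes are set in part by the filter on low counts, and no trend is read from them.

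The 4 epithelial markers were abundant in all 3 libraries and near 0 or low in all other libraries. Krt19, a keratin of single-layered epithelia, was at 1414 CPM in knock-in 4, 962 CPM in knock-in 5 and 509 CPM in knock-in 6. In knock-in 1, 2, 3 and 7 it was at 8.74, 3.30, 4.94 and 12.6 CPM, and in wild type at 3.19 to 17.2 CPM with a median of 9.94. The 3 libraries were all far above the rest, by a log2 difference of 7.02 from the other knock-in mean. Epcam, an adhesion protein on the surface of epithelial cells, was at 59.0, 20.4 and 37.0 CPM in knock-in 4, 5 and 6 and at 0, 0.11, 0.32 and 0.17 CPM in knock-in 1, 2, 3 and 7. Wild type reached 0.26 CPM, so no library of either other group came near the 3. Krt8 was at 1223, 1095 and 943 CPM, against 1.95 to 6.31 CPM for the other knock-in libraries. Elf3, an epithelial transcription factor, was at 60.5, 95.7 and 72.7 CPM against 0 to 0.24 CPM. Krt8 and Elf3 have an opposite-strand partner, so their values are less certain than those of Krt19 and Epcam.

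Most other genes that define epithelia were higher as well. In this and all later lists, members scarce elsewhere may have been kept only because the 3 libraries were high. List counts, medians and shares are therefore descriptions. A list of simple epithelial keratins and identity genes had a median log2 difference of 5.97. Of its 12 compared members, 11 were higher, beside 14.6% of all genes compared. Among the 11 are the markers Krt19 and Epcam. The count, the median and the sum below are therefore in part values known when the comparison was proposed. Krt18, the filament partner of Krt8, was also higher, at 317 ± 98.7 CPM (SD, n = 3) against 6.64 ± 1.38 CPM (SD, n = 4). Cdh1, the E-cadherin of adherens junctions, was at 74.8, 32.1 and 25.3 CPM in knock-in 4, 5 and 6 and at 0.26 to 0.90 CPM in the other knock-in. The 1 member that was not higher was Spint2, a protease inhibitor, at 24.6, 25.0 and 20.05 CPM against 18.4 to 22.7 CPM. Summed over all 20 members, including those with opposite-strand partners, the list held 3011 to 4214 CPM in the 3 libraries, 37.1 to 58.1 CPM in the other knock-in and 36.1 to 62.6 CPM in wild type.

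Genes of tight junctions and apical proteins were higher too. Of 14 compared members, 12 were higher, beside 14.6% of all genes compared, and their median log2 difference was 5.04. Several, such as Cldn7, Rab25, Ap1m2 and Cldn4, were near 0 in the other 4 libraries, so the filter bears on this count. Cldn7, a tight junction claudin, was at 74.5, 38.4 and 169 CPM in knock-in 4, 5 and 6 and at 0 to 0.31 CPM in the other knock-in. Rab25, a small GTPase of apical recycling, was at 49.99, 36.3 and 66.7 CPM against 0 to 0.16 CPM. Ap1m2, the epithelial form of a clathrin adaptor subunit, was at 49.9, 26.7 and 76.1 CPM and had 1 read in the other 4 libraries together. Cldn4 was at 5.22 to 18.4 CPM in the 3 and had 2 reads in the other 4 libraries together. The members that were not called were Cldn1, at 44.4, 3.71 and 1.73 CPM against 0.87 to 1.86, and Pard6b, at 2.64 to 4.31 CPM against 4.17 to 6.17.

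Keratins of basal and stratified epithelia were among the most extreme genes. Krt17 had no read in any of the other 4 knock-in libraries and was at 206, 297 and 132 CPM in knock-in 4, 5 and 6. Taken against a floor of 3 reads over those 4 libraries, it was at least 5902-fold higher. Krt15 was at 33.6, 152 and 61.7 CPM and had 1 read in the other 4 libraries together. Krt14 was at 182, 295 and 97.6 CPM against 0.16 to 0.92 CPM, a log2 difference of 8.27. Krt16, a keratin of stressed and proliferating keratinocytes, was at 13.3, 47.1 and 50.1 CPM and at 0 in all 10 other libraries. In all, 6 of 8 compared members of this list were higher, beside 14.6% of all genes compared. Their median log2 difference was 7.32. The filter bears on this count too, with 11 of 18 listed members kept. Genes of the cornified, outermost skin were not called: Sprr2d had no read in any library, and Lor was at 0.28 to 0.45 CPM in the 3 libraries against 0.15 to 0.27 CPM.

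**Figure D2:**
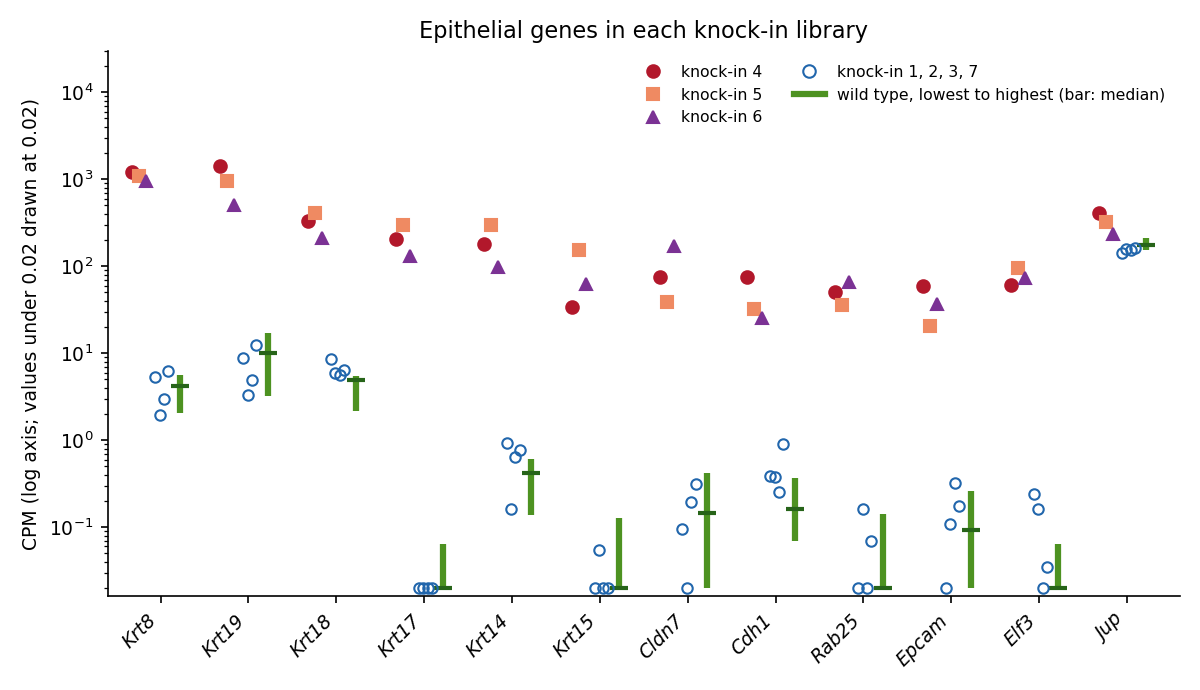
CPM of 12 epithelial genes (vertical axis, log scale) in knock-in 4, 5 and 6 (filled symbols), the other 4 knock-in libraries (open circles) and wild type (green, lowest to highest with the median). For each gene drawn the 3 filled symbols lie above all other libraries, by the least for Jup, which is itself abundant in heart.

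Of 6 compared members of the epithelial desmosome list, 4 were higher, beside 14.6% of all genes compared, with a median log2 difference of 2.31. Pkp1 and Pkp3, plakophilins of epithelial desmosomes, were at 3.24 to 15.3 CPM and 24.9 to 36.3 CPM in the 3 libraries and at 0.06 to 0.22 CPM and 0.45 to 0.73 CPM in the other knock-in. Evpl, an envoplakin that ties keratins to the desmosome, was at 14.2, 11.9 and 24.2 CPM against 0.83 to 1.98 CPM. Jup, the plakoglobin shared by heart and epithelium, was at 407, 324 and 237 CPM against 141 to 163 CPM, a log2 difference of 1.07. With library totals in place of TMM it was 0.98, which ends the call of Jup. The members not called were Ppl, the periplakin, at 42.3, 39.9 and 66.6 CPM against 27.5 to 30.3 CPM, and Perp, at 531, 117 and 143 CPM against 88.1 to 175 CPM. Dsg2 itself, the altered gene, was at 39.1, 34.7 and 59.3 CPM in knock-in 4, 5 and 6 and at 47.7, 51.9, 60.7 and 42.5 CPM in knock-in 1, 2, 3 and 7. These ranges overlapped, the log2 difference was -0.19, and wild type lay higher at 82.5 to 115 CPM. Dsg2 has an opposite-strand partner, and its level is not a check of a substitution.

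Further genes were among the 12 largest differences upward, 2 of them for transcription factors, Foxa1 and Spdef. Foxa1, a pioneer factor of endoderm and hormone-responsive glands, was at 124, 44.6 and 14.2 CPM and had 2 reads in the other 4 libraries together. Spdef, a factor of secretory epithelial cells, was at 44.0, 37.9 and 140 CPM and at 0 in the other 4, at least 2061-fold higher over the floor. S100a14, an epithelial calcium-binding protein, was at 151, 87.3 and 167 CPM, with 4 reads in the other 4 libraries. The same 12 also held Elapor1, with 380, 120 and 15 CPM, Atp6v1b1, a proton pump subunit, with 2.46, 57.5 and 9.23 CPM, and Col10a1. Also among them, Aldoart2 and H2-Q2 are close copies of other genes (an aldolase and class I histocompatibility genes), and their read assignment is uncertain.

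Few markers of particular epithelial organs were called higher, apart from some of secretory glands. They were Lamp3 among 4 compared lung alveolar genes, Sox9 among 3 of pancreas and Prss16 among 2 of thymus and thyroid. None was higher among 4 of gut, where Muc2 was lower, or among 2 each of airway, liver and kidney. Beside 14.6% of all genes, such short lists allow no reading. The liver list summed to 232, 24.4 and 15.6 CPM in knock-in 4, 5 and 6 and 21.0 to 88.6 CPM in the other knock-in. The surfactant gene Sftpc and the lung and thyroid factor Nkx2-1 had no read in any library, and the milk protein genes Csn2, Wap and Csn1s1 likewise. Of the other milk protein genes examined, Csn3 had a log2 difference of -0.45 and Lalba of 1.74. Among mesothelial genes, Msln was at 15.8, 8.69 and 11.4 CPM against 13.1 to 34.3 CPM for the other knock-in libraries, and Upk3b was at 22.2, 14.8 and 16.4 CPM against 17.2 to 46.1 CPM. Among 11 compared members of the mesothelial list, only Krt18 and Krt19 were higher, a share near the 14.6% of all genes compared. That list had a median log2 difference of -0.86. In the list of secretory gland cells, Elf5, Ltf and Aqp5 were higher and Lcn2 lower among 6 compared. The shares over all genes compared were 14.6% and 1.45%. The list median was 3.72, and its 14 members summed to 157, 69.0 and 215 CPM in knock-in 4, 5 and 6. The other knock-in libraries held 24.2 to 31.1 CPM and wild type 36.6 to 59.0 CPM. Ltf, the lactoferrin of secretions, was at 62.1, 36.4 and 10.1 CPM against 0 to 0.42 CPM. Aqp5, a water channel of glands, was at 57.2, 1.26 and 85.7 CPM against 0.27 to 1.25 CPM, so in knock-in 5 it was barely above the other group. With library totals or DESeq2 size factors Aqp5 overlapped and was no longer called, which leaves 2 higher members. The 3 libraries are therefore called here only by their labels.

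The 3 libraries were not copies of one another. Over 7608 genes, Pearson correlations of log2(CPM + 0.1) were 0.893 to 0.927 between knock-in 4, 5 and 6, 0.746 to 0.798 between them and the other knock-in, and 0.967 to 0.989 within the other knock-in. These values are across genes of libraries that share a tissue, and they include the genes set apart above. Among 946 higher protein-coding genes averaging 10 CPM or more in the 3, 481 were within 2-fold among the 3 libraries and 154 were over 4-fold apart. For the 844 of these that also had at least 1 CPM in the other knock-in, the median log2 range was 0.92 among the 3 and 0.38 among the 4. Knock-in 6 was the highest of the 3 for 478 genes (50.5%), knock-in 4 for 257 and knock-in 5 for 211.

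Each of the 3 libraries had genes of its own. With the limit set at 10 CPM and at least 4-fold above each of the other 12 libraries, there were 58 protein-coding genes in knock-in 4, 22 in knock-in 5 and 66 in knock-in 6. Genes of any class compared at 10 CPM or more numbered 7182, 7146 and 7245 in these libraries. This rule was chosen after the values were seen. It was not applied to the other 10 libraries, so such genes are not shown to be particular to the 3. In knock-in 4, Erbb2, a receptor tyrosine kinase of the epidermal growth factor receptor family, reached 5195 CPM. It was at 209 and 232 CPM in knock-in 5 and 6, and at 9.76 to 13.8 CPM in the other knock-in. Also in knock-in 4, Tat, a tyrosine aminotransferase, was at 220 CPM, against 9.05 and 0.16 CPM in knock-in 5 and 6, and Clca2 at 81.7 CPM against 1.19 and 0.68 CPM.

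In knock-in 5 the genes with the highest excess included the oestrogen receptor gene Esr1. It was at 138 CPM there, at 7.04 and 3.19 CPM in knock-in 4 and 6, and at 5.47 to 6.62 CPM in the other knock-in, so knock-in 4 and 6 were close to the other group. Bmpr1b, a receptor for bone morphogenetic proteins, reached 276 CPM in knock-in 5 and no more than 2.09 CPM in the other 6 knock-in libraries. Scube2, a secreted protein, was at 325 CPM against 7.66 to 16.3 CPM, and Stc2, the stanniocalcin 2 gene, was at 149 CPM against 10.2 to 15.4 CPM. None of these 4 passed the rule for the group of 3, because knock-in 6, and for Stc2 also knock-in 4, was not above all of the other 4.

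In knock-in 6 the genes of its own included Elf5, a transcription factor of secretory epithelium, at 102 CPM. It was at 0.98 and 1.11 CPM in knock-in 4 and 5 and at 0 in all 10 other libraries. En1, a homeobox gene, was at 71.9 CPM against 3.93 and 0.55 CPM, with 2 reads in the other 4 knock-in libraries together. Actg2, a smooth muscle actin, was at 626 CPM against 4.42 and 24.9 CPM in knock-in 4 and 5 and 2.18 to 4.28 CPM in the other 4. Bmp7 was at 153 CPM against 4.05 and 4.74 CPM and 0.49 to 1.28 CPM. The widest ranges among the 3 were also seen in Gabrp, a GABA receptor subunit, with 0.53, 22.6 and 105 CPM, and in Igfbp2, which binds insulin-like growth factors, with 329, 61.8 and 3.13 CPM.

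**Figure D3:**
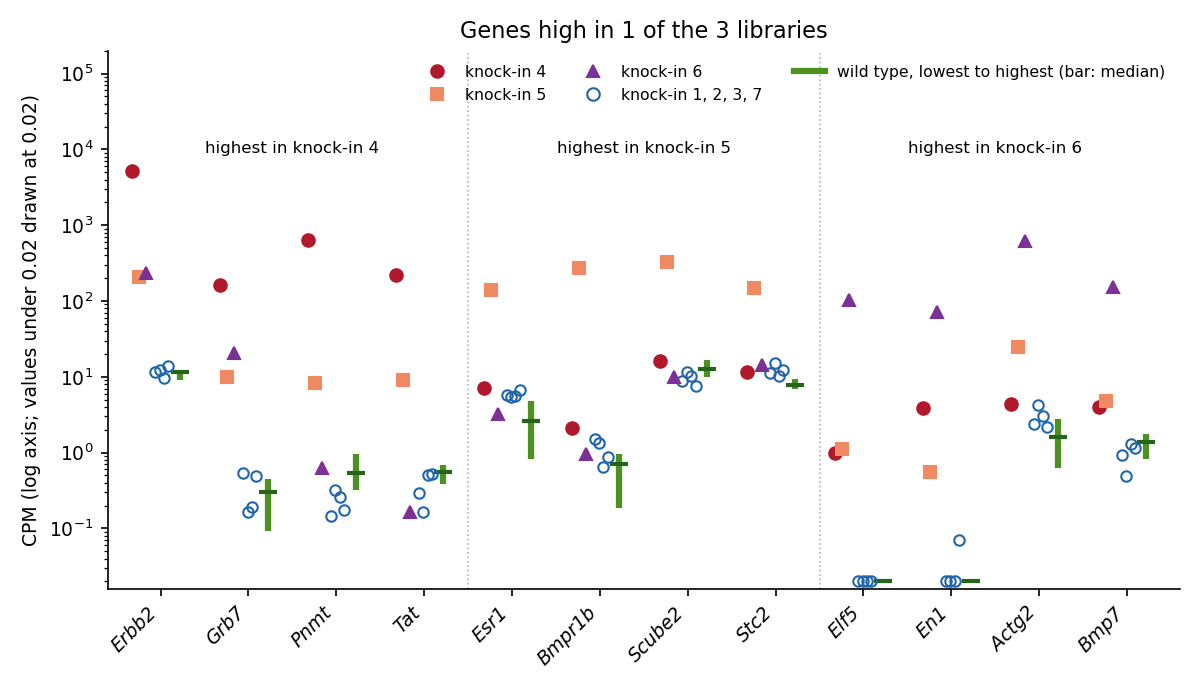
CPM (vertical axis, log scale) of 4 genes each that were highest in knock-in 4, 5 or 6, with the symbols of the other groups as open circles (knock-in 1, 2, 3 and 7) and green bars (wild type, lowest to highest with the median). Erbb2 reaches 5195 CPM in knock-in 4, Esr1 138 CPM in knock-in 5 and Elf5 102 CPM in knock-in 6, with the other 2 of the 3 libraries lower each time.

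The excess in knock-in 4 included neighbours of Erbb2 on the chromosome. Of 25 genes in the RefSeq gene order from 12 places before to 12 places after Erbb2, 14 had at least 10 CPM in knock-in 4, and 9 of these were at least 2-fold above each of the other 12 libraries. The share of all compared genes at that level with such an excess in knock-in 4 was 1.95%. Counted in the same way, without Erbb2 and without genes that have an opposite-strand partner, it was 6 of 11 genes of the window. The 9 genes were Med1, Cdk12, Ppp1r1b, Stard3, Pnmt, Pgap3, Erbb2, Mien1 and Grb7, within 13 places of the order. Pnmt, which makes adrenaline, was at 643 CPM in knock-in 4, 8.26 CPM in knock-in 5, 0.62 CPM in knock-in 6 and at most 0.33 CPM in the other knock-in. Grb7, an adaptor of receptor kinases, was at 165, 10.04 and 20.6 CPM against 0.16 to 0.53 CPM. Med1, a Mediator subunit, was at 509, 81.8 and 128 CPM against 42.1 to 49.6 CPM. Tcap, a sarcomere gene in the same stretch, was not part of it, at 540, 405 and 475 CPM against 667 to 1222 CPM. Ppp1r1b and Mien1 have opposite-strand partners and are less certain. The window was chosen after the level of Erbb2 was seen.

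A few collagens of scar and of cartilage were higher in the 3 libraries. Col1a1, the main chain of type I collagen, was at 1470, 596 and 2158 CPM in knock-in 4, 5 and 6 and at 192, 193, 168 and 355 CPM in knock-in 1, 2, 3 and 7. All 3 were above the rest, and wild type was lower still at 94.3 to 108 CPM. Col12a1, which decorates collagen fibrils, was at 318, 72.8 and 310 CPM against 18.3 to 37.1 CPM, a log2 difference of 3.19. Of 18 compared genes of the fibrillar matrix list, 5 were higher, beside 14.6% of all genes compared, with a median log2 difference of 0.44. With library totals or DESeq2 size factors Col6a3 was no longer called, which leaves 4. Col3a1, at 2899.8, 1178 and 3789 CPM against 747 to 1453 CPM, overlapped and was not called. Thus the matrix list was split, with a few chains well apart and most members not.

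The cartilage list was split further. Col10a1, a collagen of hypertrophic cartilage, was at 146, 13 and 57.8 CPM, with 1 read in the other 4 libraries together. Col11a1 was at 207, 13.1 and 154 CPM against 1.67 to 2.76 CPM, and Col9a2 at 6.51, 19.1 and 149 CPM against 1.00 to 2.17 CPM. Sox9, a transcription factor of cartilage and of many epithelia, was at 88.0, 36.0 and 68.8 CPM against 8.83 to 17.8 CPM. These 4 of 12 compared members were higher, beside 14.6% of all genes compared. The other 8 were not called, among them Comp, a cartilage and tendon matrix protein, at 97.7 to 151 CPM against 148 to 259 CPM. The list median was -0.04, and its sign depended on the processing.

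Of 13 compared genes of activated fibroblasts and myofibroblasts, 3 were higher and none lower, and their median log2 difference was -0.05. With 14.6% of all compared genes higher, 3 of 13 is not far from the background. Fap, a cell surface protease of activated fibroblasts, was at 72.6, 35.9 and 61.1 CPM against 8.22 to 11.6 CPM. Cthrc1, a secreted collagen triple helix protein, was at 66.9, 36.3 and 58.1 CPM against 3.92 to 12.1 CPM. Acta2, smooth muscle actin, was at 534, 486 and 336 CPM against 172 to 238 CPM. Postn, another gene of activated fibroblasts, was at 942, 738 and 1033 CPM against 504 to 911 CPM, which overlapped. Of 15 compared matrix proteases, 2 were higher and 2 lower, beside 14.6% and 1.45% of all genes. Mmp13 (24.6, 6.88 and 16.1 CPM against 1.25 to 4.09) and Mmp14 (207, 100.1 and 448 CPM against 58.2 to 97.1) were higher, although Mmp14 was not called with library totals, and Adam8 and Plaur were lower. Both lower proteases were at most 3.32 CPM in the 3 libraries.

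Most proliferation genes were higher in the 3 libraries, with the highest sum in knock-in 6. Of 21 compared members, 17 were called higher, beside 14.6% of all genes compared, with a median log2 difference of 1.81. Top2a, the topoisomerase of dividing cells, was at 63.3, 74.4 and 318 CPM in knock-in 4, 5 and 6 and at 5.91 to 12.03 CPM in the other knock-in. Bub1, a checkpoint kinase of mitosis, was at 12.2, 7.39 and 38.5 CPM against 0.71 to 1.91 CPM. Summed over the list, knock-in 6 had 1364 CPM, knock-in 4 and 5 had 448 and 456 CPM, and the other knock-in had 197 to 271 CPM. The members not called were Mki67, a nuclear protein of cycling cells, at 10.2 to 12.7 CPM against 11.5 to 21.9 CPM, Pcna, Bub1b and Cenpf. Replication-dependent histone genes were higher for 5 of 11, beside 14.6% of all genes compared. An example was H2bc7, at 2.91, 9.84 and 42.2 CPM against 0.05 to 0.45 CPM. Histone transcripts mostly lack a poly(A) tail and belong to near-identical families, so their counts in these libraries are uncertain.

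Immediate early and stress genes were higher for 9 of 14, beside 14.6% of all genes compared, with a median log2 difference of 1.55. Hspa1b, an inducible heat shock chaperone with a close copy in the genome, was at 358, 313 and 1529 CPM against 10.9 to 23.1 CPM. Fos was at 79.1, 103 and 88.7 CPM against 7.31 to 11.5 CPM, with a narrow spread among the 3. Myc was at 16.1, 146 and 44.5 CPM against 5.84 to 9.32 CPM, highest in knock-in 5. Egr1 was higher than in the other knock-in, at 178, 236 and 61.7 CPM against 29.0 to 35.2 CPM, but wild type reached 71.3 CPM. Of 18 genes of the secretory pathway and the unfolded protein response, 3 were called, Xbp1, Atf4 and Pdia4, a share near the 14.6% of all compared genes. Xbp1, a transcription factor of secretory cells, was at 1355, 2090 and 243 CPM against 97.8 to 130 CPM.

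Hox genes, which mark position along the body axis, were higher for 10 of 14 compared members, beside 14.6% of all genes compared. Their median log2 difference was 4.56. Of 33 listed, 23 were kept, and some may have been kept only because the 3 libraries were high. With opposite-strand genes included 13 of 23 were higher and the median was 1.29, and with TPM plus 0.1 it was 2.85. Hoxc10, normally a gene of the posterior trunk and hind limb, was at 49.5, 1.30 and 21.4 CPM and at 0 in the other 4 knock-in libraries. Hoxc6 was at 10.8, 4.86 and 7.11 CPM with 3 reads in the other 4 together, and Hoxc9 at 8.48, 1.86 and 5.44 CPM with none. Of 14 genes of retinoid handling, 4 were higher, beside 14.6% of all genes compared, with a median log2 difference of 0.13. Crabp2, a carrier of retinoic acid, was at 59.3, 145 and 42.1 CPM against 0.71 to 1.94 CPM, and the receptor gene Rara at 71.4, 72.7 and 48.9 CPM against 18.7 to 21.2 CPM.

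Immune genes showed no common direction. Jchain, which joins secreted antibodies, was at 27.0, 45.4 and 35.9 CPM in the 3 libraries, at 0.05 to 1.07 CPM in the other knock-in and at most 0.80 CPM in wild type. Of 11 compared lymphocyte genes, 4 were higher and none lower, beside 14.6% and 1.45% of all genes compared, with a median log2 difference of 0.37. The other 3 called lymphocyte genes, Cd79a, Ms4a1 and Gzma, were at most 5.32 CPM and overlapped with wild type. Of 14 macrophage genes, 1 was higher and none lower, beside 14.6% and 1.45% of all genes compared. Ctsk, a collagen-degrading cathepsin that osteoclasts use, was at 163, 102 and 177 CPM against 20.3 to 81.7 CPM. The median of that list was -0.56, and with library totals Cd68 and Lyve1 passed as lower, at -1.02 and -1.03. Among 15 interferon response genes, Ifit3 was lower, at 23.0, 19.2 and 21.1 CPM against 37.3 to 48.8 CPM, and the list median was -0.79.

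Of 11 compared genes that most cells express, 2 were higher, a share near the 14.6% of all genes, and the list median was 0.58. Actb, cytoplasmic actin, was at 2695, 2142 and 3176 CPM in knock-in 4, 5 and 6 and at 555 to 728 CPM in the other knock-in, and Ywhaz was at 738, 1235 and 565 CPM against 157 to 177 CPM. Of 22 compared ribosomal protein genes, Rpl8 and Rpl19 were higher, under the 14.6% of all genes, and Rpl8 was not called with library totals. Rpl19 was at 4453 CPM in knock-in 4 against 744 and 931 CPM in knock-in 5 and 6.

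Heart muscle genes were abundant in the 3 libraries. Tnni3, cardiac troponin I, was at 1934, 1633 and 1740 CPM in knock-in 4, 5 and 6 and at 2328, 2465, 3134 and 2176 CPM in knock-in 1, 2, 3 and 7. All 3 were under the other 4, but by less than 2-fold, a log2 difference of -0.51, and wild type was at 5262 to 9055 CPM. Tnnt2, cardiac troponin T, was at 3977 ± 159 CPM (SD, n = 3) in the 3 libraries, with a log2 difference of -0.49. Actc1, cardiac actin, was also at -0.49, and Myh6 and Myl2, which have opposite-strand partners, were at -0.61 and -0.44. None of 12 compared ventricular cardiomyocyte genes was called in either direction, and their median log2 difference was -0.51. With library totals Tcap passed as lower, at -1.05. No member was called among 20 oxidative phosphorylation genes (median -0.35), 18 fatty acid oxidation genes (median -0.38) or 14 endothelial genes (median -0.52). The defining markers of the labelled tissue were thus present in all 3 libraries.

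Genes lower in the 3 libraries were few, and most were not below wild type. Cytl1, a small secreted protein, was at 29.5, 47.9 and 34.3 CPM in knock-in 4, 5 and 6 and at 167, 116, 84.1 and 111 CPM in knock-in 1, 2, 3 and 7. Wild type was at 54.4 to 99.3 CPM, so Cytl1 was under all other 10 libraries. Fas, a death receptor, was at 13.8, 14.5 and 14.4 CPM against 25.4 to 48.5 CPM, with wild type at 23.0 to 46.0 CPM. Mgp, an inhibitor of matrix calcification, was at 620, 702 and 564 CPM against 1255 to 1589 CPM, but wild type was at 346 to 1032 CPM and overlapped with the 3. Acer2, a ceramidase, was at 32.8, 49.6 and 37.2 CPM against 69.6 to 116 CPM, and wild type at 31.3 to 52.3 CPM lay with the 3. The other genes among the 12 largest differences downward were Fam107a, Angptl4, Nts, Clec4d, Ccn3, Mamdc2, Gdf6 and Ms4a6d, with log2 differences of -2.18 to -1.28. In the 3 libraries Clec4d and Gdf6 lay above all wild type, and the other 6 overlapped with it.

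Among lists, adipocyte genes had the lowest median log2 difference, -1.68, but 1 of 9 compared was called, beside 1.45% of all genes called lower. That gene was Plin4, a lipid droplet coat protein, at 58.7, 56.5 and 49.3 CPM against 69.4 to 217 CPM. With library totals or DESeq2 size factors Cidea passed as lower too, at -1.05 and -1.01. Adipoq, the adipocyte hormone adiponectin, was at 2.29, 14.9 and 3.62 CPM against 12.8, 42.6, 5.26 and 28.3 CPM, which overlapped. In the list of endocardium and lymphatics, Cytl1 and Mmrn1 were lower among 8, beside 1.45% of all genes compared, with a median of -0.92. Mmrn1, a protein of lymphatic endothelium, was at 66.1, 67.2 and 51.1 CPM against 103 to 147 CPM, and wild type was at 24.0 to 34.3 CPM. Pparg, the receptor gene that the study addresses, overlapped between the 2 knock-in groups. Ppara, another nuclear receptor gene, was lower in all 3 libraries than in the other 4, but by less than 2-fold. Pparg was at 16.6, 14.5 and 11.0 CPM against 15.3, 37.1, 16.05 and 14.7 CPM, and Ppara at 31.4, 30.2 and 31.9 CPM against 43.9 to 67.1 CPM. Their log2 differences were -0.57 and -0.81, and neither passed 2-fold.

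**Figure D4:**
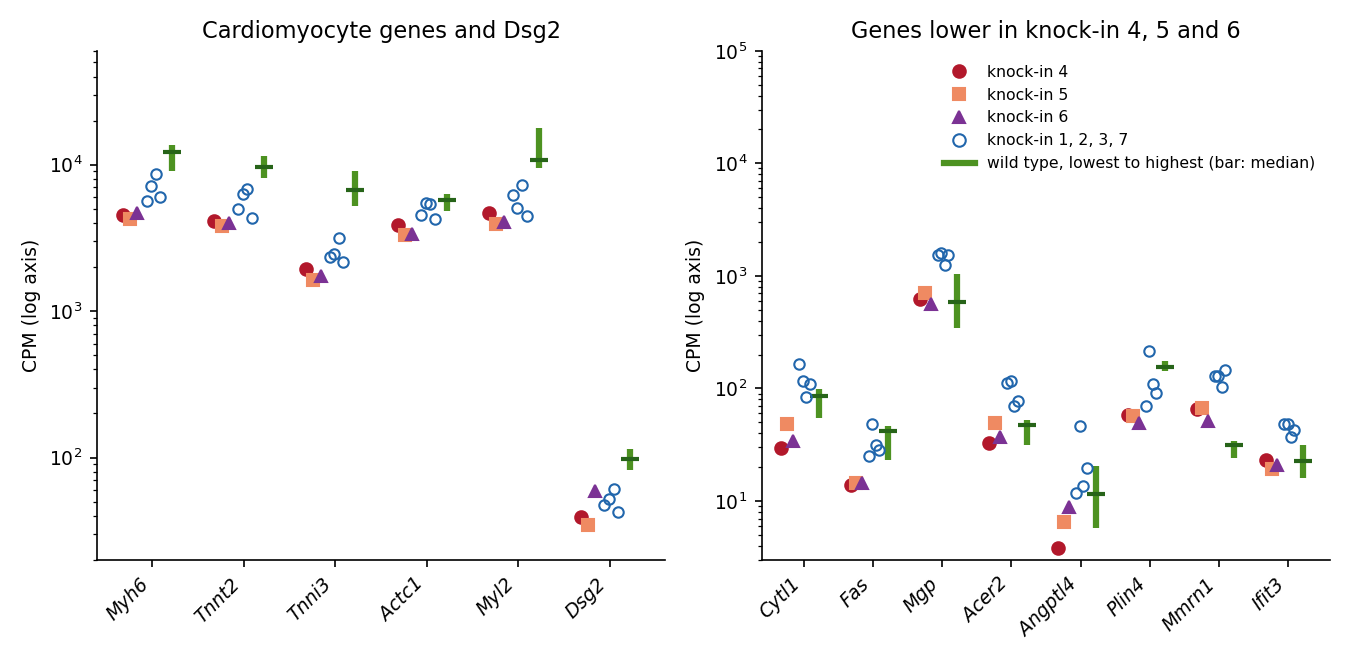
CPM (vertical axes, log scale) of cardiomyocyte genes and Dsg2 (left) and of 8 genes lower in knock-in 4, 5 and 6 (right); filled symbols are knock-in 4, 5 and 6, open circles knock-in 1, 2, 3 and 7, and green bars the range of wild type with its median. Cardiomyocyte genes of the 3 libraries lie within 2-fold of the other knock-in means, and Mgp, Acer2 and Ifit3 of the 3 lie in the wild-type range.

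Some properties of the libraries moved with the grouping. The 4 Y-linked genes examined were over 10 CPM in 3 of the 3 libraries and in 1 of the other 4, knock-in 2. The 20 most abundant genes took 8.03% to 9.29% of reads in the 3 libraries, 9.84% to 12.1% in the other knock-in and 14.1% to 17.0% in wild type. The tables hold totals per gene and no reads, so the source of the epithelial transcripts, whether from other tissue, another sample or another organism, was not tested. The part of these library properties in the differences was not tested either.

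**Figure D5:**
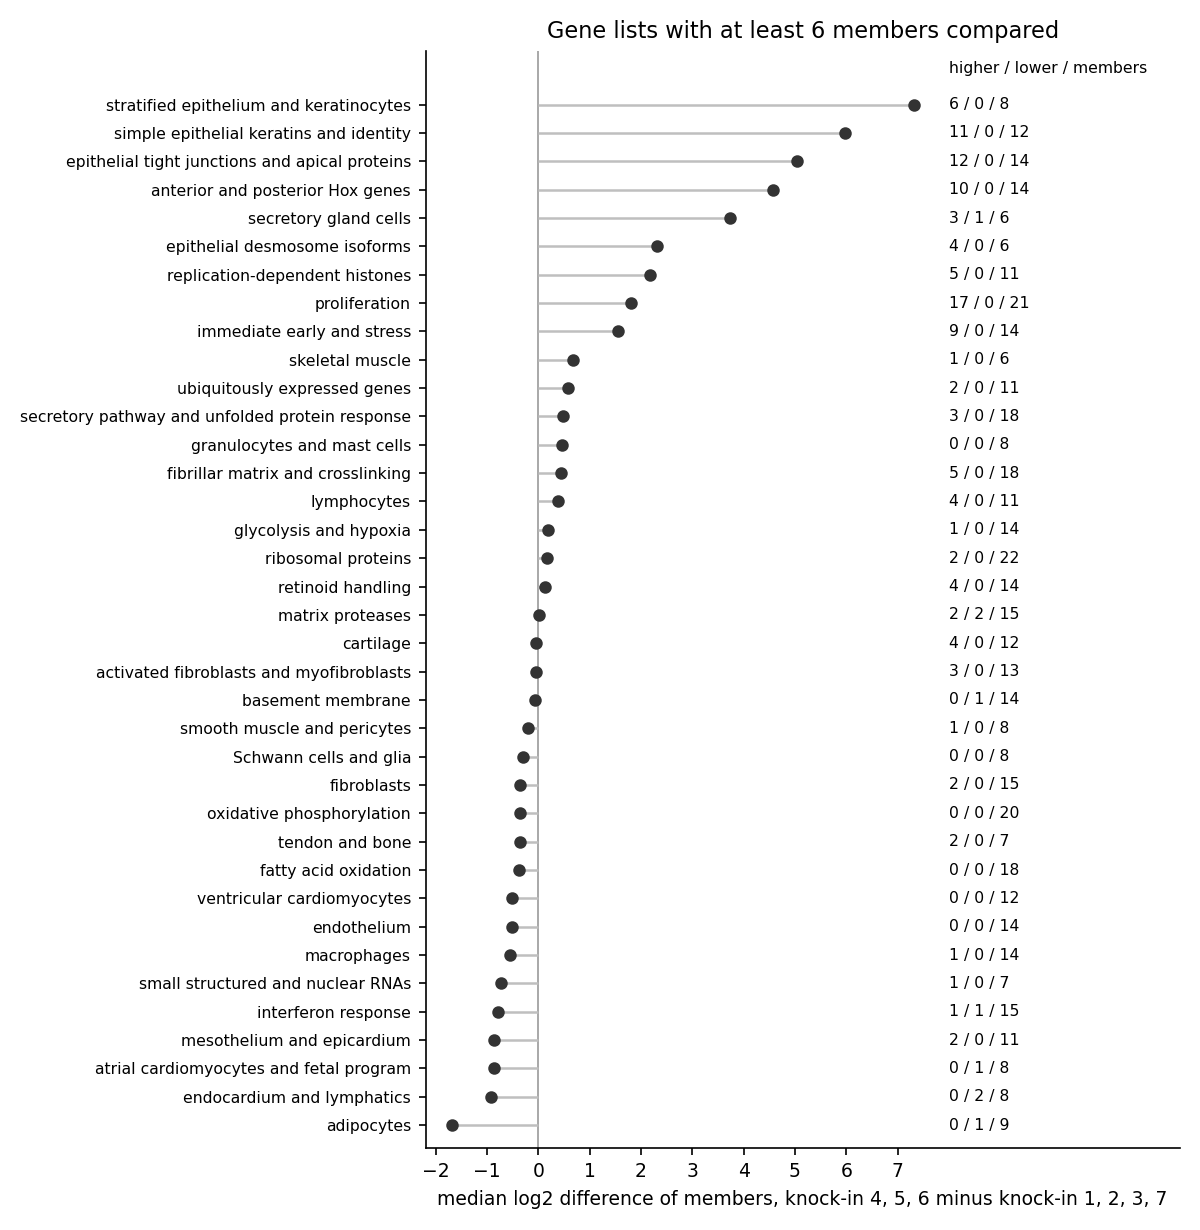
Median log2 difference in mean CPM (horizontal axis, knock-in 4, 5 and 6 minus knock-in 1, 2, 3 and 7) of each gene list with at least 6 compared members; the numbers at the right give members higher, members lower and members compared. Lists of epithelial genes lie highest, at 7.32, 5.97 and 5.04, and the adipocyte list lowest, at -1.68. Members scarce elsewhere may have been kept only because the 3 libraries were high, which raises such medians. The list at 5.97 also holds the markers Krt19 and Epcam, whose levels were known when the comparison was proposed.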

How the data were processed

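Polyadenylated RNA of right ventricle was sequenced with stranded libraries, per the labels' protocols. The authors deposited for each library a table of 26264 gene symbols with estimated counts of reads, which need not be whole, TPM and an effective length in bases, per the file headers. DRAGEN and the build GRCm39 (mm39) are listed, without a version, in the submitters' processing notes; annotation and strandedness of counting: not given in the sources used here.

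Estimated counts were rounded, genes were kept with filterByExpr over the 2 knock-in groups (15488 genes) and CPM were scaled by TMM over 13 libraries (edgeR 4.0.16, R 4.3.3; DESeq2 1.42.0 for other size factors; Python 3.11.15, numpy 2.4.6, pandas 2.3.3, matplotlib 3.10.9). Exon overlap of at least 50 bases on the opposite strand and gene class came from a GENCODE annotation of GRCm38, used for these relations only: 25425 symbols matched, and 4330 kept genes with overlap and 190 unmatched ones were left out. The order of genes around Erbb2 came from a RefSeq gene table. Log2 differences are of mean CPM, with a floor of 3 reads over a group at 0. A gene was called when at least 2-fold apart with no overlap of the 3 and the 4 libraries. The scripts were tested on simulated data.

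The members, lists and rules were chosen with earlier results of these data known. Named genes are the 4 markers, Dsg2, Pparg and Ppara; the 12 largest differences each way among called protein-coding genes with at least 10 CPM in the higher group; up to 4 called members of each list with at least 3; the 5 widest ranges among the 3; and markers at or near 0. Some genes that the rule names are left out of the text. The genes high in a single library, the neighbours of Erbb2 and further list members in the text were picked after their values were seen. Every list's result is drawn or counted among 49 lists; those with under 6 compared members held at most 1 called gene each.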

Additional observations from a re-analysis of the deposited data

Results flagged for a closer look

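Of 57 named genes examined, 10 had 1 of the 4 other knock-in libraries far from its 3 companions. The limit used is passed in about 1 in 20 groups of 4 independent, normally distributed values. CPM of genes named for their values in these same data need not behave so, and nothing is read from the number of such genes. Knock-in 7 stood apart for Mamdc2 at 25.6 CPM, Col1a1 at 355 CPM, Adam8 at 14.2 CPM, Pdia4 at 83.7 CPM and Crabp2 at 1.94 CPM, each the highest of the 4. Knock-in 2 was the highest for Pparg at 37.1 CPM and Fam107a at 52.3 CPM, and knock-in 1 for Gdf6 at 48.2 CPM. Knock-in 3 was the lowest for Mgp at 1255 CPM and for Aldh1a3 at 5.52 CPM. All of these genes except Pparg were called, and a call requires that none of the 3 libraries overlaps with any of the 4. Leaving out the single library therefore could not reverse their direction, so that is no check of it.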

How the results depend on the processing

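No paired analysis was possible because the 2 knock-in groups share no replicate number and no test was made. The main counts were 1601 higher, 159 lower, 1483 above and 51 below all other 10 libraries. With a mean of at least 10 CPM required they were 985, 40, 928 and 16. With a 4-fold limit 780 were higher and 7 lower. Fold alone gave 257 lower, TPM plus 0.1 gave 104 lower, and protein-coding genes only, an alternative added after seeing the data, gave 33 below all others. Leaving out 1 knock-in library at a time gave 1459 to 1747 higher, 147 (without knock-in 7) to 400 (without knock-in 5) lower, and 59 to 151 (without knock-in 5) below all others; without knock-in 2, 3 or 6 there were 309, 262 and 289 lower, and without knock-in 2, 4 or 6 there were 104, 98 and 120 below all others. Lower counts therefore depend on single libraries. Library totals gave 1446 higher and 223 lower, DESeq2 size factors 1571 and 177, all genes with opposite-strand partners included 2275 and 212, and no filter 2029 and 236. Without the 221 genes whose values over 10 reads were not whole only in the 3, also added later, 1506 were higher.

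List medians near 0 changed sign. The cartilage median of -0.04 was 5.28 with at least 10 CPM, 0.076 with opposite-strand genes, 0.0081 with TPM and -0.17 to 0.18 with 1 library left out. That of retinoid handling, 0.13, was -0.44 to 0.32, that of pancreas genes, -0.67, was -0.93 to 0.21 (above 0 without knock-in 7), and that of neuroendocrine genes, -0.10, was 0.10 with opposite-strand genes. The cause was not tested. Depth limits genes under 1 CPM, where single reads decide.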

Other observations

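Some genes outside the groups above also stood apart, and these were picked after their values were seen. Tubb3, a tubulin typical of neurons, was at 108, 49.4 and 75.2 CPM in the 3 libraries against 2.44 to 4.77 CPM, while the neuroendocrine and neural list as a whole had 1 of 4 compared genes higher. Slc16a3, a lactate exporter of glycolytic cells, was at 44.5, 25.6 and 29.7 CPM against 7.45 to 10.9 CPM. It was the 1 gene called among 14 of glycolysis and hypoxia. Col2a1, the main collagen of cartilage, was at 233 CPM in knock-in 5, at 0.41 and 15.6 CPM in knock-in 4 and 6 and at 0.16 to 0.34 CPM in the other 4, but it did not pass the filter on low values. Sox10, a transcription factor of neural crest, glia and some glands, reached 117 CPM in knock-in 6, with 2.33 and 16.7 CPM in knock-in 4 and 5, while the list of Schwann cells and glia had no gene called among 8. Slc34a2, a phosphate transporter of lung and gland epithelium, was at 0, 1.66 and 46.0 CPM and had no read in the other 4 knock-in libraries.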
